A study of Mus musculus with 12 samples.

Results

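The enzymes of fatty acid oxidation and of ketone body use were followed through differentiation of C2C12 cells as a set of 35 genes listed by name. They comprise the carnitine shuttle, the acyl-CoA dehydrogenases, the later enzymes of mitochondrial and peroxisomal beta-oxidation, the electron transfer flavoproteins, the ketone body enzymes, 2 acyl-CoA thioesterases, 2 pyruvate dehydrogenase kinases and 2 uncoupling proteins. The rule is membership of this list and uses no measured value, though the list was chosen with earlier results of these data known. All 35 have a row among the 46983 genes of the expression table, and all 35 were among the 18023 genes tested, which had at least 0.1 FPKM in at least 3 of the 12 libraries. FPKM scales the fragments of a gene to its transcript length and to the mapped total of the library, so that levels can be set side by side between genes.

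C2C12 cells are mouse myoblasts, a line that fuses into myotubes on differentiation. RNA of whole cultures was sequenced in 4 groups of 3 libraries, from wild type cells on day 0 (WT_0d) and day 5 of differentiation (WT_5d) and from cells overexpressing PPARγ on the same days (PPARγ/+_0d and PPARγ/+_5d). By the study's methods the PPARγ coding sequence was carried by a PiggyBac vector, positive clones were taken after puromycin, and the WT group bears the name of that vector, PB-IP. The methods describe 1 medium, with serum and LIF, and name no separate medium for differentiation. The deposited design text instead calls the cells inducible and the controls uninduced. The sources used here settle neither this nor whether WT cells carried the empty vector, which promoter drove PPARγ, and how many clones each culture came from. The study calls the 3 libraries of a group biological replicates without saying from which cultures they came, so p-values measure the spread between these libraries.

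As background, a long-chain fatty acid enters the mitochondrion as an acylcarnitine. CPT1 makes it at the outer membrane, SLC25A20 carries it across the inner membrane, and CPT2 turns it back into acyl-CoA. Each round of beta-oxidation then takes an acyl-CoA through a dehydrogenase, a hydratase, a second dehydrogenase and a thiolase, and the electrons of the first step pass through the electron transfer flavoprotein to the respiratory chain. Muscle burns both fatty acids and ketone bodies, and PPAR receptors are known for binding near many genes of this pathway as heterodimers with RXR.

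Pparg itself, the overexpressed gene, was read first. Its FPKM was 7.56, 5.10 and 6.92 in WT_0d and 3.12, 3.53 and 4.59 in WT_5d, against 44.4, 28.0 and 46.4 in PPARγ/+_0d and 40.1, 44.1 and 92.7 in PPARγ/+_5d. Every PPARγ/+ library lay above every WT library, by 5.93-fold on 0d (log2 2.57, SE 0.24, adjusted p = 0.0115) and 14.4-fold on 5d (log2 3.85, SE 0.34, adjusted p = 0.0379). Between 10836628 and 15133171 fragments per library lay on the genes whose fragments could be counted. Over 18 muscle genes, of which 17 were tested, the summed FPKM was 73.0 to 417 on 0d. It was 7020, 5270 and 1530 in the WT_5d replicates 1, 2 and 3 and 1580 to 1870 in PPARγ/+_5d. WT_5d replicate 3 thus stood apart from the other WT_5d libraries, and it lay nearer to the PPARγ/+_5d mean than to that of the other WT_5d libraries for 24 of the 35 members (68.6%), as it did for 66.0% of all genes tested. Its Pparg was 4.59 FPKM and its Adipoq was listed at 0. Over 16 adipocyte genes, of which 9 were tested, the sum was 12.8 to 21.0 in WT, 21.9 to 27.6 in PPARγ/+_0d and 60.9, 71.2 and 164 in PPARγ/+_5d. Lep and Slc7a10 were listed at 0 in all 12 libraries. Adipoq, the adipocyte hormone adiponectin, was at most 0.0313 FPKM in WT and 8.03, 12.7 and 40.5 FPKM in PPARγ/+_5d. Whether the share of muscle or fat-like cells takes part in the results below was not tested, and fewer cells of a type and less RNA per cell cannot be told apart in these libraries.

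The members lay at widely different levels in every group. By group means, 18 members were at 10 FPKM or more in WT_0d, 11 between 1 and 10, and 6 under 1. The counts were the same in WT_5d, with 19, 11 and 5 in PPARγ/+_0d and 19, 10 and 6 in PPARγ/+_5d. Oxct1, which activates ketone bodies for use, was the highest member in each group, with 73.2 ± 8.0 FPKM (SD, n = 3) in WT_0d and 56.4 ± 16.8 in WT_5d, 78.5 ± 4.79 in PPARγ/+_0d and 64.6 ± 5.27 in PPARγ/+_5d. Acadl, the long-chain acyl-CoA dehydrogenase, came next in 3 of the 4 groups and Etfa, a subunit of the electron transfer flavoprotein, in PPARγ/+_5d. The lowest members were Ucp3, Ehhadh, Cpt1b and Bdh1, each under 0.3 FPKM in every library. Together the 35 members summed to 471 to 666 FPKM per library.

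**Figure D1:**
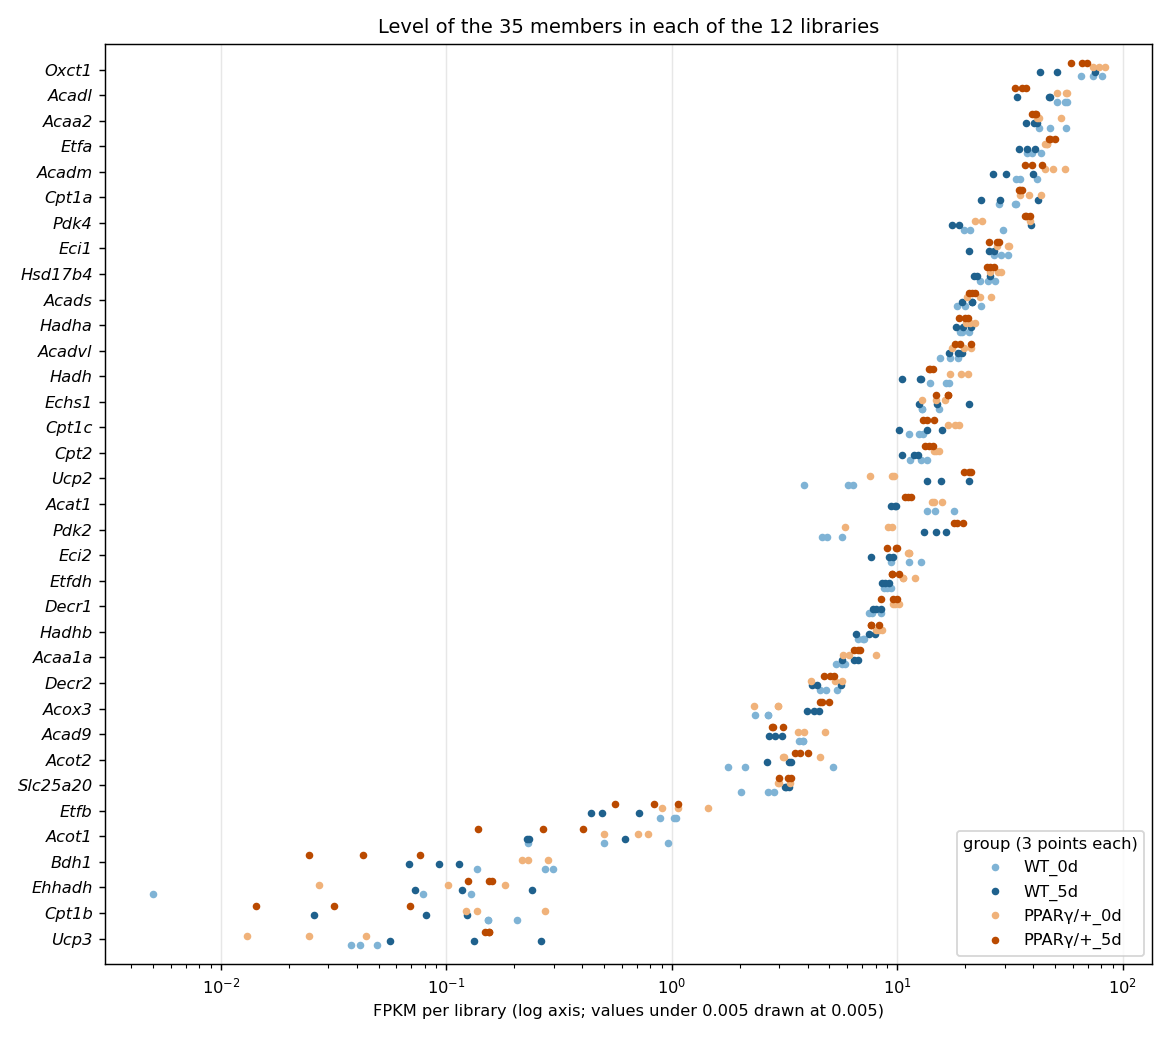
FPKM of the 35 members in each of the 12 libraries on a log axis, with 1 point per library, coloured by group, and members ordered by their mean. Oxct1 lies at the top and 5 members lie under 1 FPKM in every library; for most members the points of the 4 groups fall close together.

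The isoforms of a step were far apart in level. Of the CPT1 enzymes, the entry step of the pathway, Cpt1a was at 31.6 ± 2.96 FPKM (SD, n = 3) in WT_0d and 31.4 ± 9.62 in WT_5d, and at 38.8 ± 4.14 and 35.1 ± 0.436 in PPARγ/+_0d and PPARγ/+_5d. Cpt1b, the form of adult muscle, lay between 0.0143 and 0.273 FPKM, from 1 to 24 fragments per library, including the differentiated cells. Cpt1c, known as a brain form, lay between 10.2 and 18.7 FPKM. Acot1 and Acot2 are close paralogs, cytosolic and mitochondrial, and reads could be shared between them, so their split is uncertain. Etfb, the other subunit of the electron transfer flavoprotein, lay between 0.438 and 1.45 FPKM, while Etfa lay between 34.7 and 50. The exons of Etfb share 53.0% of their length with Gm45233 on the same strand, which was listed at 0 in all 12 libraries, so the Etfb values are uncertain. The exons of Acadvl share 42.9% with Dvl2 on the other strand, and overlaps of other members were 13.7% or less.

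From 0d to 5d most members changed little, and those that moved did so in both directions. In WT cells 3 of the 35 members rose (Ucp2, Pdk2 and Acox3) and 4 fell (Etfb, Acat1, Hadh and Acad9), at an adjusted p of at most 0.05 by limma on log2(FPKM + 0.1) over all genes tested. At this rule 37.1% of all genes tested were called, 14.1% as higher and 23% as lower, so the members' share of 20.0% lay below the background. In PPARγ/+ cells 4 members rose (Pdk2, Ucp2, Ucp3 and Acox3) and 11 fell (Bdh1, Acot1, Cpt1b, Acadl, Acad9, Hadh, Acat1, Cpt1c, Acadm, Oxct1 and Eci2), or 42.9% against 47.5% of all genes tested, of which 18.8% were higher and 28.8% lower. The 3 members that rose in WT cells were among the 4 that rose in PPARγ/+ cells. Of the members that fell, 3 were shared, which are 75.0% of those in WT and 27.3% of those in PPARγ/+ cells. The 95% interval of the change lay within 2-fold for 26 of the 35 members (74.3%) in each cell type. Of all genes tested this held for 51.8% in WT and 59% in PPARγ/+ cells.

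The members had a median log2 change of −0.05 (WT) and −0.11 (PPARγ/+), beside −0.08 and −0.10 over all genes tested. Both medians turn sign with median-ratio scaling of the libraries, to 0.08 and 0.02, while the median of all genes moves to 0.02 in both. That scaling gives 5 members higher and 2 lower in WT cells (3258 and 3228 genes in all) and 5 higher and 7 lower in PPARγ/+ cells (4226 and 3856 genes). In WT cells the 3 libraries of 5d lay wholly above those of 0d for 5 members (20.2% of all genes tested) and wholly below for 9 (30.9%). In PPARγ/+ cells this held for 5 members above (23.8%) and 14 below (34.4%).

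With a further minimum of 2-fold, the adjusted p left Pdk2 and Ucp2 as higher in WT cells (2 members, against 8.07% of all genes tested) and 0 as lower (6.9%). In PPARγ/+ cells it left Pdk2 and Ucp2 as higher (2 members, 8.72%) and Bdh1 and Acot1 as lower (2 members, 5.6%). An unadjusted p of at most 0.05 with 2-fold, the study's own thresholds, gave the same counts of members in both cell types, beside 8.94% of all genes higher and 7.53% lower in WT and 9.11% and 6.06% in PPARγ/+ cells. Between the cell types neither rule left a member. The adjusted rule gave 0.361% of all genes higher and 1.23% lower on 0d, 0.0943% and 0.061% on 5d and 0.427% and 0.0999% for the interaction described below. The unadjusted rule gave 1.25% and 2.41% on 0d, 1.55% and 1.81% on 5d and 2.46% and 1.68% for the interaction.

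**Figure D2:**
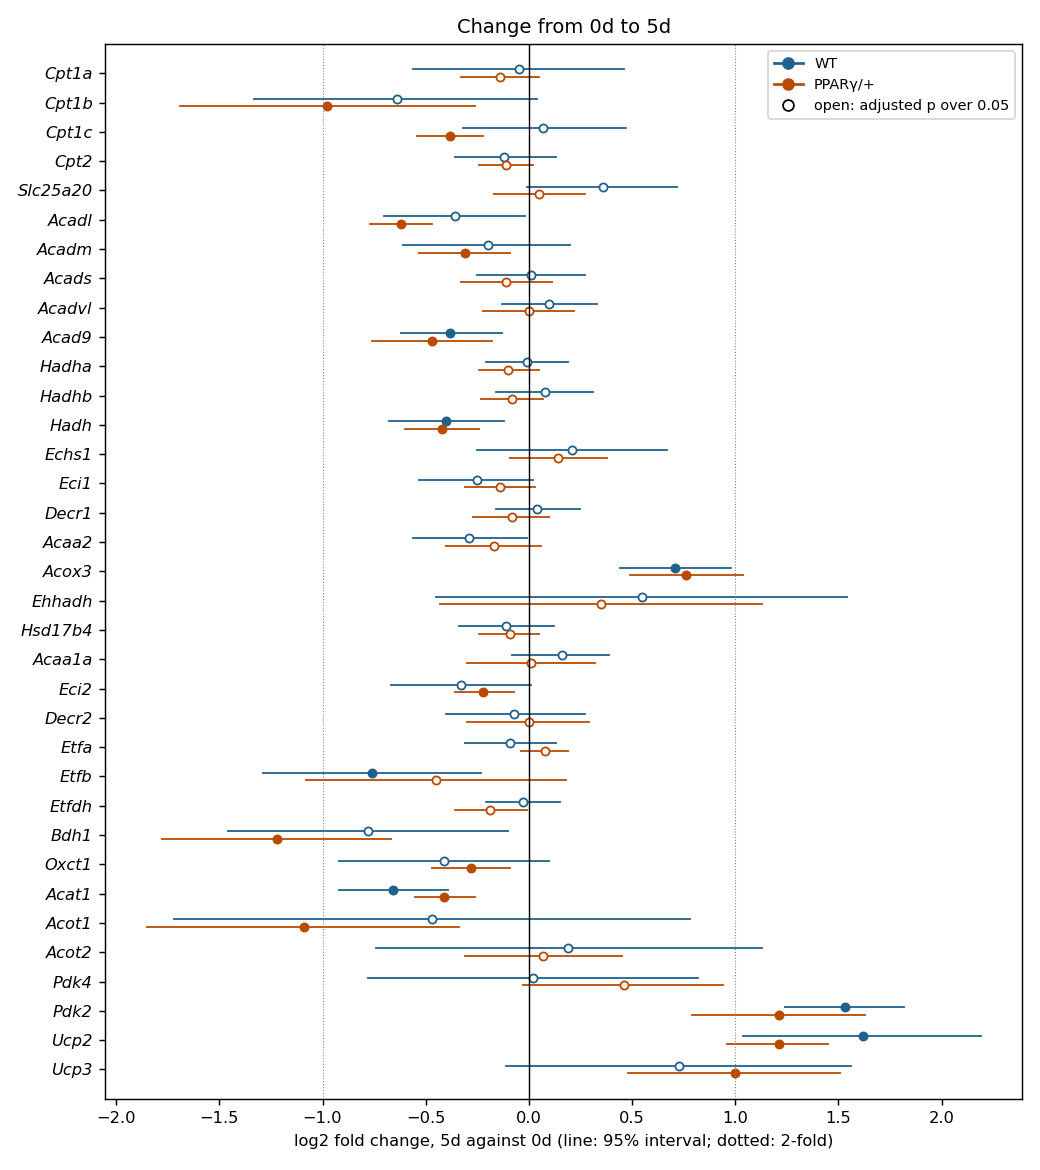
log2 fold change from 0d to 5d of each member in WT (blue) and PPARγ/+ cells (orange), with its 95% interval, with members ordered by role. Filled points have an adjusted p of at most 0.05. Pdk2, Ucp2 and Acox3 are filled on the right for both cell types, and Acat1, Hadh and Acad9 on the left.

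The largest rises among the members were in Pdk2 and Ucp2. Pdk2 (chromosome 11 of GRCm38 from 95026258 to 95041354), a kinase that turns off pyruvate dehydrogenase and so holds back the burning of glucose, was at 5.67, 4.85 and 4.63 FPKM in WT_0d and 13.1, 14.8 and 16.5 in WT_5d. In PPARγ/+ cells it was at 5.87, 9.48 and 9.05 FPKM on 0d and 17.9, 18.3 and 19.5 on 5d. Day 5 lay wholly above day 0 in both cell types, and replicate 1 of PPARγ/+_0d was the lowest of its group. The rise was 2.89-fold in WT (log2 1.53, SE 0.12, adjusted p = 0.000415) and 2.31-fold in PPARγ/+ cells (log2 1.21, SE 0.18, adjusted p = 0.00163). Outside the members, other kinases and phosphatases of pyruvate dehydrogenase went both ways by limma. In WT cells Pdp1 (log2 1.3, adjusted p = 0.0177) and Pdk1 (0.64, 0.0141) rose, and Pdk3 (−0.45, 0.0425) and Pdp2 (−0.67, 0.0317) fell. In PPARγ/+ cells Pdp1 rose (0.94, 0.00634), and Pdk3 (−0.57, 0.00359) and Pdp2 (−0.57, 0.0112) fell. Their joint effect on glucose use was not tested.

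Ucp2 (chromosome 7 from 100493337 to 100502020), a carrier of the mitochondrial inner membrane named after the uncoupling protein of brown fat, was at 3.84, 6.01 and 6.38 FPKM in WT_0d and 15.6, 20.8 and 13.6 in WT_5d. The PPARγ/+ libraries were at 9.67, 9.5 and 7.57 FPKM on 0d and 20.8, 21.3 and 19.7 on 5d. Again no library of 5d reached down to those of 0d. Ucp2 rose 3.06-fold in WT (log2 1.62, SE 0.24, adjusted p = 0.00332) and 2.31-fold in PPARγ/+ cells (log2 1.21, SE 0.10, adjusted p = 0.000179). Its neighbour Ucp3, a muscle relative, was near the limit of detection, with 3 fragments in each WT_0d library, 21, 8 and 4 in WT_5d, 1, 2 and 3 in PPARγ/+_0d and 10, 10 and 9 in PPARγ/+_5d. Its call was for PPARγ/+ cells (log2 1.0, SE 0.22, adjusted p = 0.00885), where the summed fragments per mapped fragment were 5.75 times those of 0d, with an exact 95% counting interval of 2.34 to 16.9. In WT cells this ratio was 3.68 (1.72 to 8.74) and the log2 change 0.73 (SE 0.34, adjusted p = 0.149). It was 1.02 (adjusted p = 0.0355) without WT_5d replicate 3, where 37.9% of all genes were called. Such intervals cover counting error only.

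Pdk4, the starvation-induced kinase of pyruvate dehydrogenase and a textbook PPAR target, was spread widely within 3 of the 4 groups. It was at 19.8, 20.9 and 29.5 FPKM in WT_0d and 17.4, 18.8 and 39.0 in WT_5d. PPARγ/+_0d held 38.9, 23.8 and 22.0 FPKM and PPARγ/+_5d 37.2, 36.7 and 38.9. The high values on the WT side came from replicate 3 of each day, and that on the PPARγ/+_0d side from replicate 1. The change from 0d to 5d was 0.02 on the log2 scale in WT (SE 0.33, adjusted p = 0.970) and 0.46 in PPARγ/+ cells (SE 0.20, adjusted p = 0.107). Without PPARγ/+_0d replicate 1 the latter was 0.71 (SE 0.05, adjusted p = 0.000645). Leaving out any other library did not give this call, and 8296 of 18023 genes were called in that setting.

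**Figure D3:**
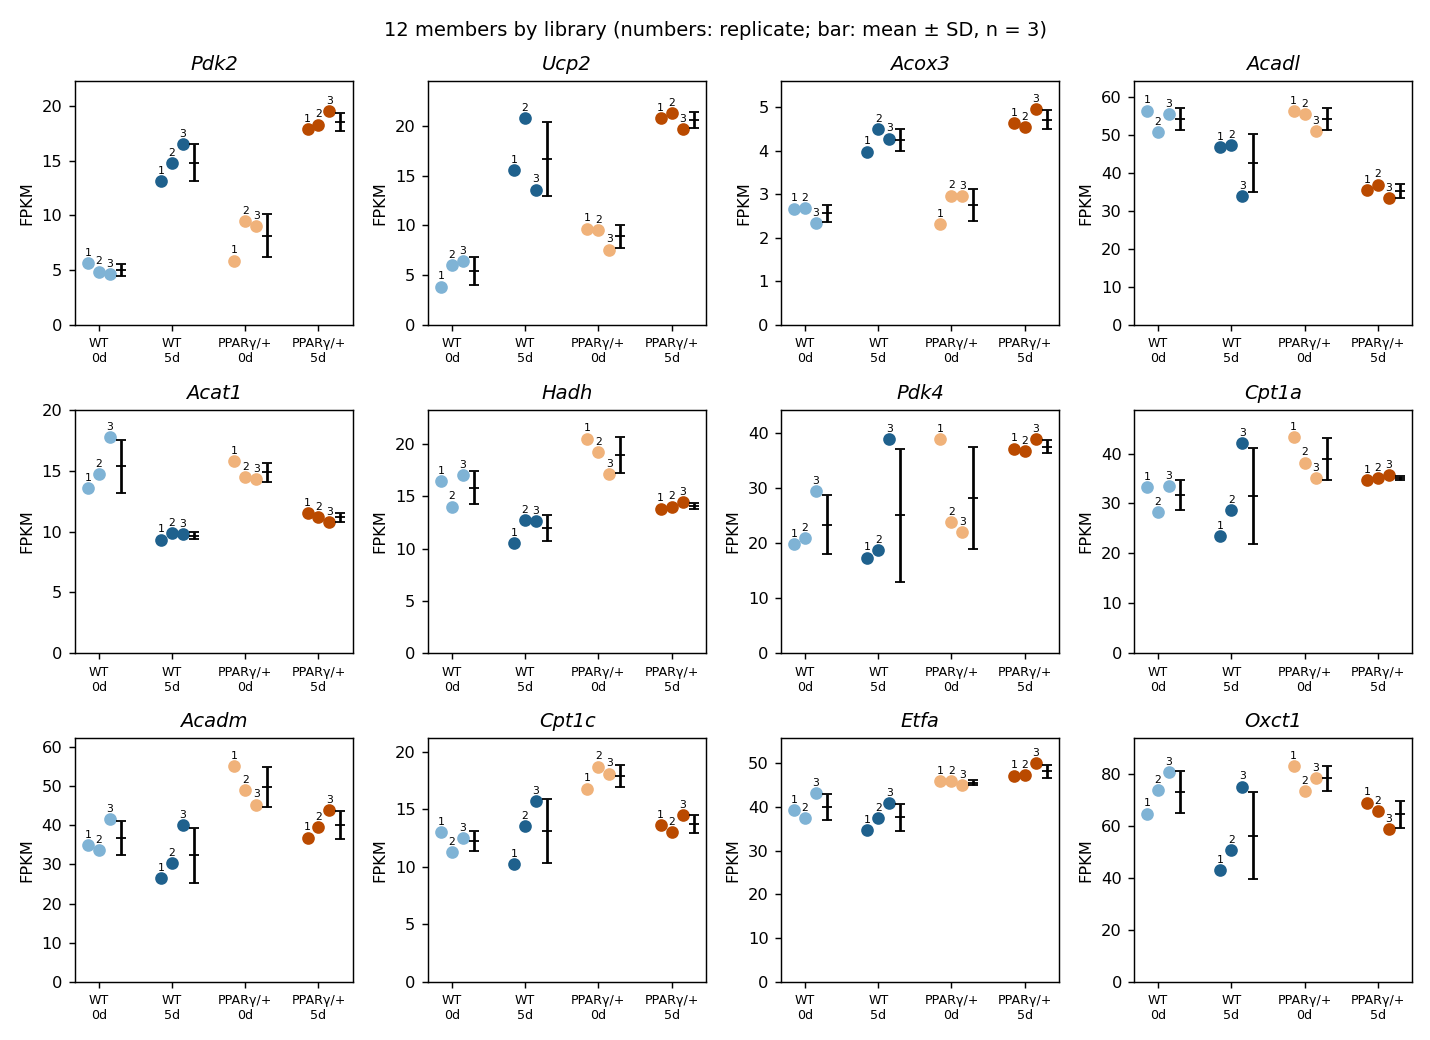
FPKM of 12 members by library, with the replicate number over each point and the mean ± SD (n = 3) beside each group, each axis from 0. Pdk2, Ucp2 and Acox3 stand higher on 5d in both cell types, and WT_5d replicate 3 lies apart from replicates 1 and 2 in Pdk4, Cpt1a, Oxct1 and Acadl.

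Among the enzymes of the peroxisome, which shortens very long and branched fatty acids, 1 of 6 members rose in WT cells, and 1 rose and 1 fell in PPARγ/+ cells. Acox3 (chromosome 5 from 35583040 to 35615352), an acyl-CoA oxidase, was at 2.67, 2.68 and 2.33 FPKM in WT_0d and 3.98, 4.49 and 4.28 in WT_5d. In PPARγ/+ cells its values were 2.32, 2.97 and 2.95 FPKM on 0d and 4.63, 4.54 and 4.96 on 5d. The groups of the same day overlapped on 0d and those of different days did not. The rise was 1.64-fold in WT (log2 0.71, SE 0.11, adjusted p = 0.00422) and 1.70-fold in PPARγ/+ cells (log2 0.76, SE 0.11, adjusted p = 0.00184). Eci2, an enoyl-CoA isomerase, fell by 0.22 on the log2 scale in PPARγ/+ cells (SE 0.06, adjusted p = 0.0230), a call lost without any 1 of 3 libraries (PPARγ/+_0d replicates 2 and 3 and PPARγ/+_5d replicate 1, adjusted p = 0.0518 to 0.0545). It was also lost with median-ratio scaling (log2 −0.09, adjusted p = 0.295) and with all 12 libraries in one fit (adjusted p = 0.136). Hsd17b4, Acaa1a and Decr2 changed by −0.11 to 0.16 on the log2 scale in the 2 cell types, and Ehhadh was at most 0.240 FPKM, with 0 to 14 fragments per library, where a count of 0 allows up to 3.

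The ketone body enzymes were all lower on 5d in their means, and all 3 fell in PPARγ/+ cells. Acat1 (chromosome 9 from 53580522 to 53610382), the mitochondrial thiolase that splits acetoacetyl-CoA, was at 13.6, 14.7 and 17.8 FPKM in WT_0d and 9.35, 9.86 and 9.80 in WT_5d. PPARγ/+_0d held 15.8, 14.5 and 14.3 FPKM and PPARγ/+_5d 11.5, 11.2 and 10.8. Every library of 5d lay below every library of 0d. Acat1 fell by 0.66 on the log2 scale in WT (SE 0.11, adjusted p = 0.00536) and by 0.41 in PPARγ/+ cells (SE 0.06, adjusted p = 0.00183).

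Oxct1 was at 64.9, 74.0 and 80.8 FPKM in WT_0d and 43.0, 50.9 and 75.3 in WT_5d, where replicate 3 overlapped the 0d libraries. Its values were 83.2, 73.6 and 78.7 FPKM in PPARγ/+_0d and 69.1, 65.9 and 58.8 in PPARγ/+_5d, without overlap. It fell by 0.28 on the log2 scale in PPARγ/+ cells (SE 0.08, adjusted p = 0.0237), a call lost without any 1 of 4 libraries (PPARγ/+_0d replicates 1 and 3 and PPARγ/+_5d replicates 2 and 3, adjusted p = 0.0613 to 0.0654). It was also lost with median-ratio scaling (log2 −0.15, adjusted p = 0.201), with all 12 libraries in one fit (adjusted p = 0.202) and with no filter (adjusted p = 0.0602). The WT change was −0.41 (SE 0.21, adjusted p = 0.176) and became −0.64 (SE 0.13, adjusted p = 0.0151) without WT_5d replicate 3. Bdh1, the hydroxybutyrate dehydrogenase, rested on 22, 13 and 24 fragments in WT_0d, 11, 5 and 8 in WT_5d, 20, 28 and 19 in PPARγ/+_0d and 6, 2 and 3 in PPARγ/+_5d. It fell by 1.22 on the log2 scale in PPARγ/+ cells (SE 0.23, adjusted p = 0.00505), where the summed fragments of 5d were 0.195 times those of 0d (exact 95% counting interval 0.0930 to 0.372). In WT cells its change was −0.78 (SE 0.28, adjusted p = 0.0739), or −1.02 (adjusted p = 0.0338) without WT_0d replicate 2, its lowest WT_0d library. Leaving out any other library did not give this call, and 5194 of 18023 genes were called in that setting.

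Of the 5 acyl-CoA dehydrogenases, which take the first step of each round, 1 fell in WT and 3 in PPARγ/+ cells. Acadl (chromosome 1 from 66830839 to 66863277) was at 56.5, 50.9 and 55.5 FPKM in WT_0d and 46.9, 47.4 and 33.9 in WT_5d. In PPARγ/+ cells it was at 56.3, 55.7 and 51.1 FPKM on 0d and 35.6, 37.0 and 33.4 on 5d. Day 5 lay below day 0 throughout, and WT_5d replicate 3 lay among the PPARγ/+_5d libraries. Acadl fell by 0.62 on the log2 scale in PPARγ/+ cells (SE 0.06, adjusted p = 0.000359), whereas the WT change of −0.36 (SE 0.14, adjusted p = 0.0941) did not pass.

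Acad9, which also helps assemble respiratory complex I, lay between 3.68 and 3.80 FPKM in WT_0d and between 2.69 and 3.09 in WT_5d, and at 3.61 to 4.79 and 2.79 to 3.11 in PPARγ/+_0d and PPARγ/+_5d. It fell by 0.38 in WT (SE 0.10, adjusted p = 0.0301) and by 0.47 in PPARγ/+ cells on the log2 scale (SE 0.12, adjusted p = 0.0187). Its WT call was lost without any 1 of 5 libraries (all but WT_5d replicate 3, adjusted p = 0.0704 to 0.0914) and its PPARγ/+ call without PPARγ/+_5d replicate 2 or 3 (0.0649 to 0.0682). With median-ratio scaling neither Acad9 call held, at −0.25 in WT (adjusted p = 0.0716) and −0.34 in PPARγ/+ cells (adjusted p = 0.0750). Acadm, the medium-chain enzyme, fell by 0.31 in PPARγ/+ cells (SE 0.09, adjusted p = 0.0324), a call lost without any 1 of 4 libraries (PPARγ/+_0d replicates 1 and 2 and PPARγ/+_5d replicates 1 and 2, adjusted p = 0.0769 to 0.108). Median-ratio scaling (log2 −0.18, adjusted p = 0.205), one fit of all 12 libraries (adjusted p = 0.103) and no filter (adjusted p = 0.0881) ended the Acadm call too. Acads and Acadvl, the short-chain and very-long-chain enzymes, changed by −0.11 to 0.10 with intervals within 2-fold.

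Of the 7 later mitochondrial enzymes, only Hadh was called in either cell type. Hadh, the short-chain hydroxyacyl-CoA dehydrogenase (chromosome 3 from 131233419 to 131272101), was at 16.4, 14.0 and 17.0 FPKM in WT_0d, 10.5, 12.7 and 12.6 in WT_5d, 20.5, 19.2 and 17.1 in PPARγ/+_0d and 13.8, 14.0 and 14.4 in PPARγ/+_5d. It fell by 0.40 on the log2 scale in WT (SE 0.12, adjusted p = 0.0354), a call lost without any 1 of 4 libraries (WT_0d replicates 1 and 3 and WT_5d replicates 1 and 2, adjusted p = 0.0679 to 0.117), and by 0.42 in PPARγ/+ cells (SE 0.07, adjusted p = 0.00376). The WT call was lost as well with median-ratio scaling (log2 −0.27, adjusted p = 0.0710) and with no filter (adjusted p = 0.0737). Hadha and Hadhb, the subunits of the trifunctional protein for long chains, changed by −0.10 to 0.08. Their libraries of 0d and 5d overlapped in both cell types. Echs1, Eci1, Decr1 and Acaa2, a hydratase, an isomerase, a reductase and a thiolase, changed by −0.29 to 0.21.

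Of the 5 carnitine shuttle members none was called in WT cells and 2 fell in PPARγ/+ cells. Cpt1c was at 16.8, 18.7 and 18.1 FPKM in PPARγ/+_0d and 13.6, 13 and 14.5 in PPARγ/+_5d, and fell by 0.38 on the log2 scale (SE 0.07, adjusted p = 0.00380). Cpt1b held 10, 24 and 10 fragments in PPARγ/+_0d and 1, 5 and 2 in PPARγ/+_5d. It fell by 0.98 on the log2 scale (SE 0.30, adjusted p = 0.0336), with a ratio of summed fragments of 0.216 (exact 95% counting interval 0.0879 to 0.464). This call was lost without any 1 of 4 libraries (PPARγ/+_0d replicates 2 and 3 and PPARγ/+_5d replicates 1 and 3, adjusted p = 0.0522 to 0.0887), with no filter (adjusted p = 0.0544) and with 1 added to the FPKM (log2 −0.18, adjusted p = 0.0554). Cpt1a, Cpt2 and Slc25a20 changed by −0.14 to 0.36 in the 2 cell types.

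The electron transfer members and the thioesterases gave 1 call in each cell type. Etfb was at 1.02, 0.886 and 1.04 FPKM in WT_0d and 0.438, 0.490 and 0.717 in WT_5d, from 11 to 28 fragments, and fell by 0.76 on the log2 scale (SE 0.22, adjusted p = 0.0367). The call was lost without any 1 of 5 libraries (all but WT_5d replicate 3, adjusted p = 0.0722 to 0.113) and with no filter (adjusted p = 0.0697). Etfa and Etfdh, which passes the electrons on to ubiquinone, changed by −0.19 to 0.08. Acot1 was at 0.499, 0.787 and 0.705 FPKM in PPARγ/+_0d and 0.402, 0.268 and 0.138 in PPARγ/+_5d, and fell by 1.09 on the log2 scale (SE 0.32, adjusted p = 0.0277). This was lost without any 1 of 4 libraries (replicates 2 and 3 of each PPARγ/+ day, adjusted p = 0.0629 to 0.0937), with all 12 libraries in one fit (adjusted p = 0.0719) and with no filter (adjusted p = 0.0800). Acot2 changed by 0.19 in WT (adjusted p = 0.735) and by 0.07 in PPARγ/+ cells, or by 0.65 in WT without WT_0d replicate 1 (adjusted p = 0.0463), its highest WT_0d library. Leaving out any other library did not give this call, and 4952 of 18023 genes were called in that setting.

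**Figure D4:**
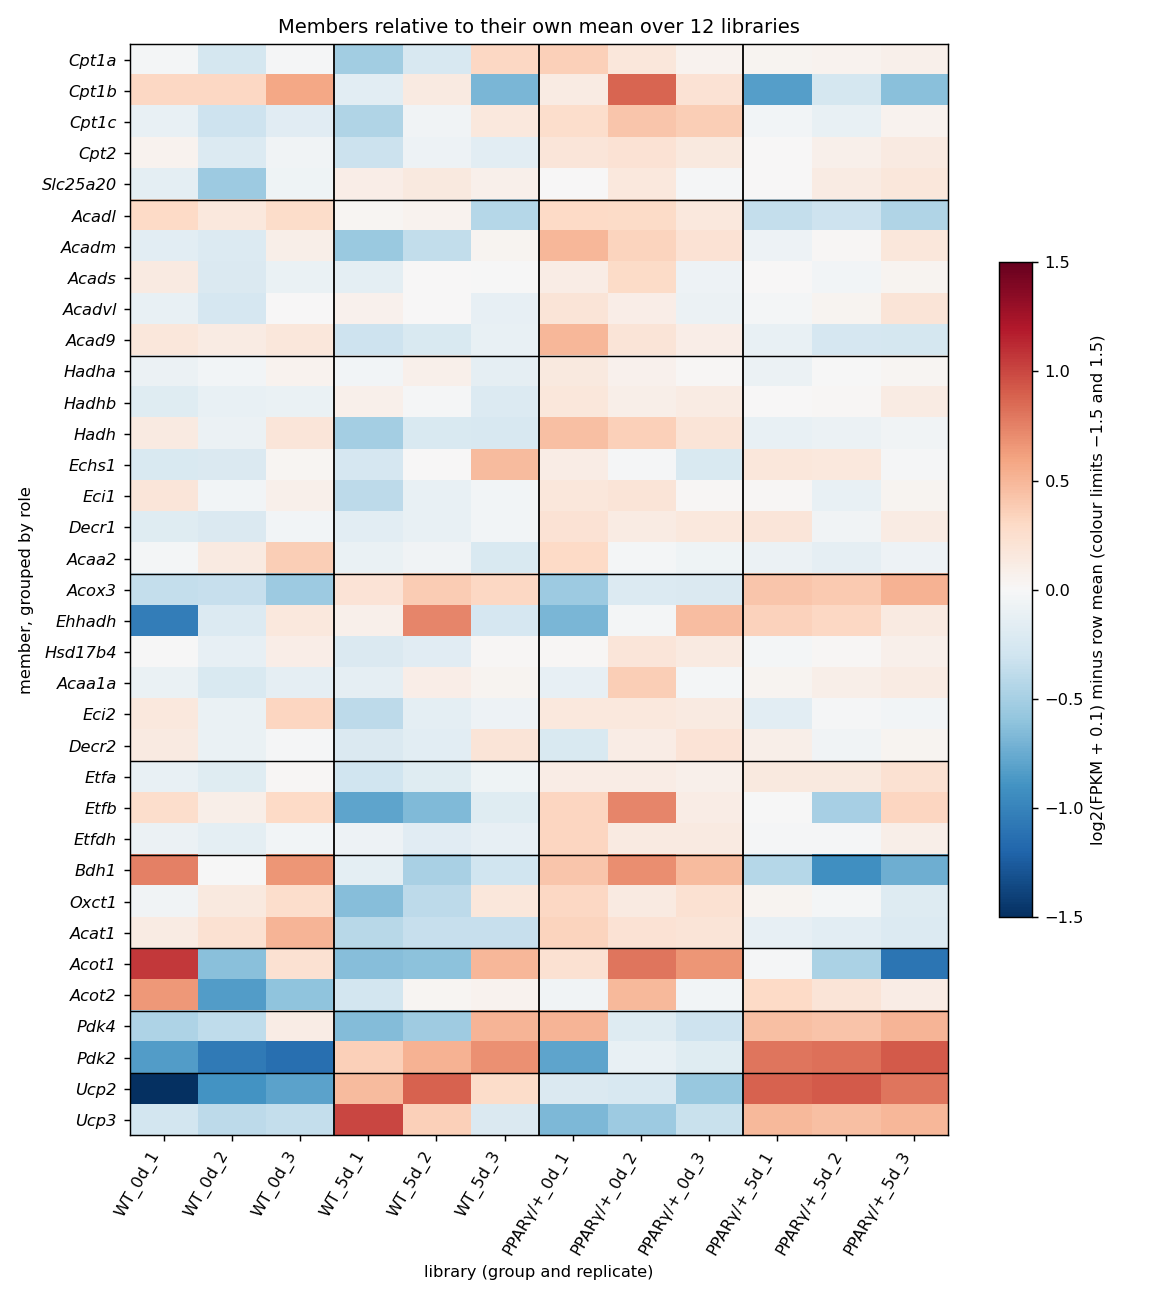
Each member's log2(FPKM + 0.1) minus its own mean over the 12 libraries, with members in rows grouped by role, libraries in columns grouped by cell type and day, red above and blue below the mean. Ucp2 and Pdk2 are blue on 0d and red on 5d in WT cells, and most rows of beta-oxidation enzymes are faint.

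A list of 40 other mitochondrial genes (citric acid cycle, respiratory chain, ATP synthase, import and transcription) served as a reference for the organelle. Of these 0 rose and 25 fell in WT cells and 0 rose and 34 fell in PPARγ/+ cells, with a median log2 change of −0.44 and −0.37. By limma at an unadjusted p of at most 0.05, 28 and 36 were past the threshold, where 46.8% and 54.4% of all genes tested were. With median-ratio scaling the medians were −0.31 and −0.24, with 18 and 21 lower and 0 and 1 higher. The largest fall was in Hspd1, a chaperone of the matrix, from 164 ± 18.5 to 54.8 ± 1.87 FPKM (SD, n = 3) in WT cells (log2 −1.58, SE 0.10, adjusted p = 0.000248). The difference between the members and this list was not tested.

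Of 60 further genes of fatty acid activation, peroxisomal import, ketone synthesis and pyruvate dehydrogenase control, 54 were tested. In WT cells 22 rose and 5 fell (median 0.29), and in PPARγ/+ cells 25 rose and 11 fell (median 0.25). With median-ratio scaling these counts were 27 and 2 in WT and 28 and 6 in PPARγ/+ cells. Acsl6, an acyl-CoA synthetase, rose in WT from 0.0915 to 1.28 FPKM (group means), with 1.93, 1.45 and 0.465 in the WT_5d replicates 1, 2 and 3 (log2 2.72, adjusted p = 0.00935). In PPARγ/+ cells Acsl6 rose from 0.0251 to 0.241 FPKM (log2 1.45, adjusted p = 0.0014). Acsl5, another synthetase, fell from 42.0 to 16.9 FPKM in WT (log2 −1.31, adjusted p = 0.000937) and from 45.5 to 19.6 in PPARγ/+ cells (log2 −1.19, adjusted p = 0.000642). Acot7, a cytosolic thioesterase, fell from 77.4 to 24.7 FPKM in WT (log2 −1.64, adjusted p = 0.000163) and from 67.1 to 29.5 in PPARγ/+ cells (log2 −1.18, adjusted p = 8.82e-05).

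On 0d the members were a little higher in PPARγ/+ than in WT cells, by a median of 0.19 on the log2 scale against 0.02 for all genes tested. The log2 difference was above 0 for 31 of the 35 members (53.4% of all genes tested). The 54 further pathway genes tested had a median of 0.16, with 40 above 0. The 40 mitochondrial reference genes had a median of −0.08, with 9 above 0. The difference between the members and these lists was not tested. Of the members, 1 passed the test. Of all genes 3.75% were called, 1.28% as higher and 2.46% as lower. The called member was Cpt1c, at 13, 11.3 and 12.5 FPKM in WT_0d and 16.8, 18.7 and 18.1 in PPARγ/+_0d, which is 1.45-fold higher (log2 0.53, SE 0.07, adjusted p = 0.0248). Its call was lost without any 1 of the 6 libraries (adjusted p = 0.0525 to 0.104) and with no filter (adjusted p = 0.0555). None of the members was called lower. At an unadjusted p of at most 0.05, 11 members passed (31.4%), all higher in PPARγ/+ cells, where 21.7% of all genes tested passed in either direction. Under median-ratio scaling the medians were 0.15 and −0.01. By limma at that scaling 8 members (22.9%) had an unadjusted p of at most 0.05, near the 21.8% of all genes tested.

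The PPARγ/+_0d libraries lay wholly above the WT_0d libraries for 12 members (13.7% of all genes tested) and wholly below for 0 (13.1%). These 12 were Cpt1a, Cpt1c, Cpt2 and Slc25a20 of the shuttle, Acadm, Hadhb, Hadh and Decr1 of the mitochondrial cycle, Etfa and Etfdh, and Pdk2 and Ucp2. Acadm was at 35, 33.7 and 41.6 FPKM in WT_0d and 55.2, 49.0 and 45.3 in PPARγ/+_0d (log2 0.44, SE 0.11, adjusted p = 0.0875). Decr1, the dienoyl-CoA reductase needed for unsaturated chains, was at 7.71, 7.50 and 8.5 FPKM against 10.2, 9.54 and 9.73 (log2 0.31, SE 0.07, adjusted p = 0.0706). Pdk2 differed by 0.65 (SE 0.20, adjusted p = 0.136), or by 0.87 (adjusted p = 0.0486) without PPARγ/+_0d replicate 1, which was its lowest PPARγ/+_0d library. Leaving out any other library did not give this call, and 243 of 18023 genes were called in that setting. Muscle genes were lower on this side, with 3 of 17 tested called lower and none higher, and 3 of 9 adipocyte genes tested were called higher.

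On 5d none of the 35 members passed the test between PPARγ/+ and WT cells by limma, with 5 at an unadjusted p of at most 0.05 (Cpt2, Hadh, Etfa, Acat1 and Pdk2, all higher in PPARγ/+ cells). These are 14.3% of the members, near the 12.7% of all genes tested at that unadjusted p. At the adjusted p few genes passed at all, 0.189% of those tested (0.105% higher and 0.0832% lower). The median difference of the members was 0.14 on the log2 scale against 0.02 for all genes, with 30 of 35 above 0 (54.5% of all genes). The 54 further pathway genes tested had a median of 0.08, with 34 above 0, and the 40 mitochondrial reference genes −0.09, with 5 above 0. The 95% interval lay within 2-fold for 31 of the 35 members (88.6%, against 70.1% of all genes tested). The PPARγ/+_5d libraries lay wholly above the WT_5d libraries for 8 members (10.2% of all genes tested), which were Cpt2, Hadh, Acox3, Etfa, Etfdh, Acat1, Acot2 and Pdk2, and wholly below for 0 (8.31%). Etfa was at 34.7, 37.5 and 40.9 FPKM in WT_5d and 47.2, 47.3 and 50 in PPARγ/+_5d (log2 0.36, SE 0.07, adjusted p = 0.157).

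Leaving out WT_5d replicate 3, the library with 1530 FPKM of muscle genes, raised the share of genes called on 5d to 10.7%, and 5 members were then called. This leaves WT_5d with replicates 1 and 2. Pdk4 was higher in PPARγ/+_5d, at 37.2, 36.7 and 38.9 FPKM against 17.4 and 18.8 (2.07-fold, log2 1.05, SE 0.05, adjusted p = 0.00604), where with all libraries it differed by 0.68 (SE 0.31, adjusted p = 0.419). Acadm (log2 0.50, adjusted p = 0.0458), Etfa (0.41, adjusted p = 0.0203) and Pdk2 (0.41, adjusted p = 0.0355) were higher too. Acadl was lower (log2 −0.41, SE 0.06, adjusted p = 0.0205), at 35.6, 37.0 and 33.4 FPKM against 46.9 and 47.4, where with all libraries the difference was −0.26 (SE 0.14, adjusted p = 0.486). In the same setting 4.71% of all genes were called higher and 6.02% lower.

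**Figure D5:**
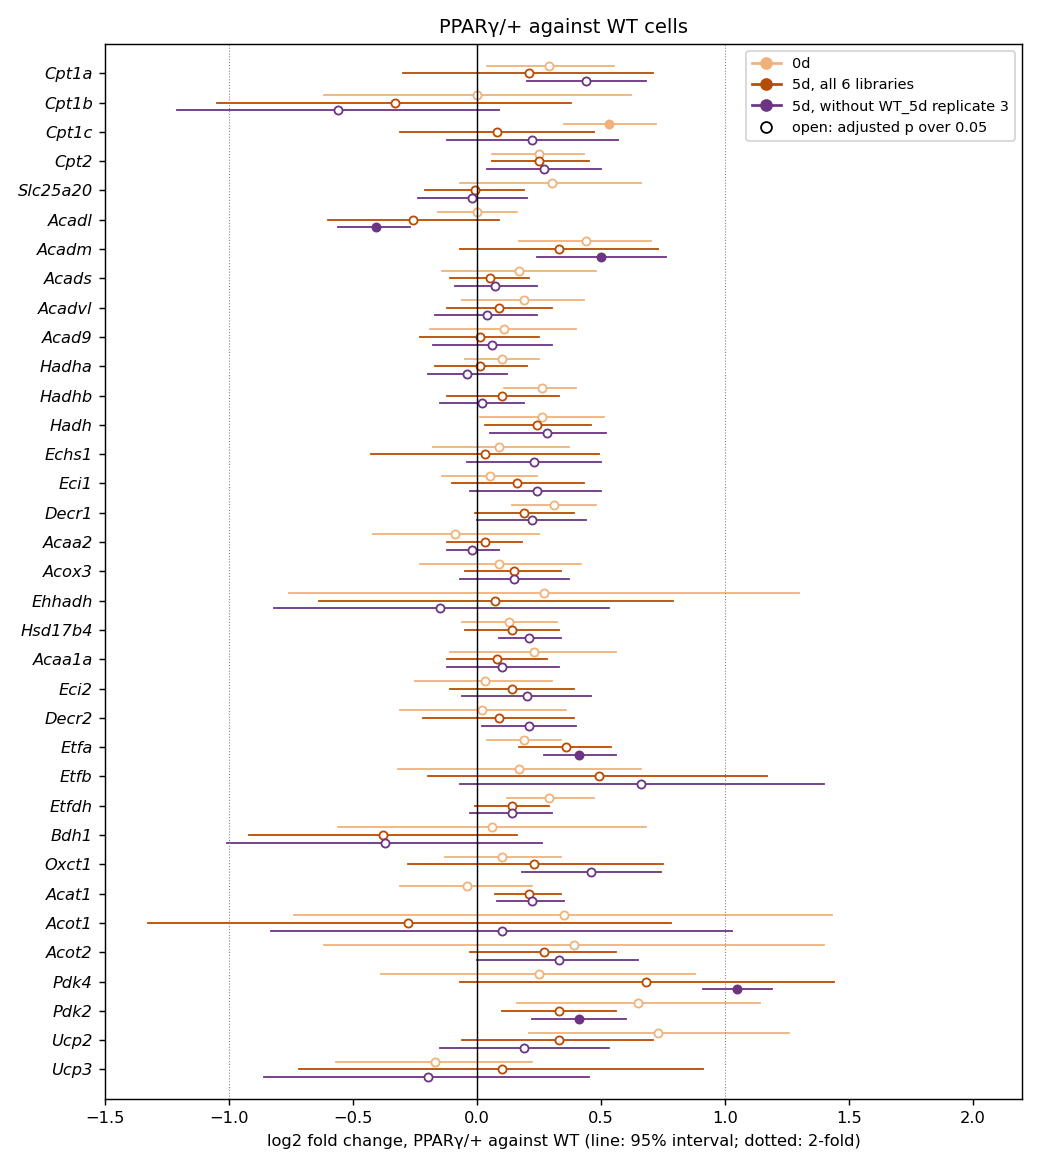
log2 fold change of each member between PPARγ/+ and WT cells with its 95% interval, on 0d, on 5d with all 6 libraries and on 5d without WT_5d replicate 3. Filled points have an adjusted p of at most 0.05. With all libraries only Cpt1c on 0d is filled, and without WT_5d replicate 3 Acadl lies below 0 and Acadm, Etfa, Pdk4 and Pdk2 above.

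The interaction, fitted to all 12 libraries, asks whether WT and PPARγ/+ cells changed by unequal amounts over the 5 days. None of the 35 members was called by limma (0.760% of all genes tested, 0.583% higher and 0.178% lower), and 1 (2.86%) had an unadjusted p of at most 0.05, below the 12% of all genes tested. That was Cpt1c, whose change in PPARγ/+ cells was lower than that in WT cells by 0.45 on the log2 scale (SE 0.18, 95% interval −0.86 to −0.05, adjusted p = 0.357). The interval lay within 2-fold for 26 of the 35 members (74.3%, against 59.2% of all genes tested). Without WT_5d replicate 3, where 2.92% of all genes were called, Acadl had the steeper change in PPARγ/+ cells (log2 −0.42, SE 0.10, adjusted p = 0.0471). The 2 comparisons of PPARγ/+ with WT cells share no libraries with each other, but each shares libraries with both comparisons of the days.

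The sequences before the transcription starts are shown for some members as examples, and they were not chosen by test results alone. Etfa, which is shown, passed none of the main tests. Acox3, Acadl and Hadh are not shown and hold none of the letters searched for. Their calls from 0d to 5d in PPARγ/+ cells held in each alternative other than the 2-fold rules. In WT cells the Hadh call was lost in some alternatives, and Acadl was not called in the main fit. Cpt1c, whose call from 0d to 5d in PPARγ/+ cells held likewise, is not shown either and holds AGGTCA. PPARγ with RXR is known to bind a direct repeat of AGGTCA with 1 base between the copies, searched here as AGGTCANAGGTCA on both strands. A window from 250 bases before to 50 after the RefSeq start (GRCm38.p6) was at hand for 29 of the 35 members, in 31 windows. AGGTCA, on either strand, was found in the windows of 6 of these 29 members (20.7%), against 18.1% of all genes with a window. They were Acadm, Acadvl, Cpt1a, Cpt1c, Echs1 and Ucp3. The exact repeat was in the windows of 0 members and in 0.0396% of all windows. With at most 2 mismatches it was in those of 4 members (13.8%), Echs1, Etfa, Slc25a20 and Ucp3, against 4.40% of all genes. A match with mismatches can hold an AGGTCA counted before. Such a match describes the letters and does not show a binding site. Below, the 250 bases before the start run 5′ to 3′ on the gene's own strand, for Ucp3 (chr7:100472741-100472990, plus strand), Etfa (chr9:55512244-55512493, minus strand), Ucp2 (chr7:100493108-100493357, plus strand), Pdk2 (chr11:95041372-95041621, minus strand, the first of its 2 windows) and Pdk4 (chr6:5496279-5496528, minus strand). Capitals mark AGGTCA on either strand and the repeat with at most 2 mismatches, which begins 51 bases before the start in Ucp3 and, on the reverse strand, 77 bases before it in Etfa.
Ucp3: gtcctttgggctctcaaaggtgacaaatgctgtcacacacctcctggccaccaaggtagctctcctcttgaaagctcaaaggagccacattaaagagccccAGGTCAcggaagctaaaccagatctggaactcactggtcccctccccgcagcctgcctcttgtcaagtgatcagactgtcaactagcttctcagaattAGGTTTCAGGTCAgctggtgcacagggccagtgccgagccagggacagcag
Etfa: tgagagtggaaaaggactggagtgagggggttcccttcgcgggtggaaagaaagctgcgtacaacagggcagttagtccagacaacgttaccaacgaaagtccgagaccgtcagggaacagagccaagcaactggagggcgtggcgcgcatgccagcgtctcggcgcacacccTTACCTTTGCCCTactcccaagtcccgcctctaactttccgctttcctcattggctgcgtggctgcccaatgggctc
Ucp2: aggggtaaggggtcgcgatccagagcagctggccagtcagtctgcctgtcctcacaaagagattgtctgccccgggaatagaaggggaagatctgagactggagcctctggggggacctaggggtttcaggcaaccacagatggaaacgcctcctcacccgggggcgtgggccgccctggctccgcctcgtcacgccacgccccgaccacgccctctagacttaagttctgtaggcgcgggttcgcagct
Pdk2: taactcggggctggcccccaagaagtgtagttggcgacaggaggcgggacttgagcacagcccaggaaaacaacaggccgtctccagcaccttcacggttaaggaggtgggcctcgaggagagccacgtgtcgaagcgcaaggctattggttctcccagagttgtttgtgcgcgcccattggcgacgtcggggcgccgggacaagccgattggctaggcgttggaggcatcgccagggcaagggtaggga
Pdk4: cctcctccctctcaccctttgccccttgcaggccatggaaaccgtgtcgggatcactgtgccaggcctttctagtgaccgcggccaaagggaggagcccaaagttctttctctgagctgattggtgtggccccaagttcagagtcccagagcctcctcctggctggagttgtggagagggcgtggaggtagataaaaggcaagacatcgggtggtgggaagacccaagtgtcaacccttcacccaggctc
Ucp3 and Etfa hold such letters, and Pdk2, Ucp2 and Pdk4 hold none in these windows. The libraries of the 2 cell types overlapped on both days for Ucp3 (log2 −0.17 on 0d and 0.10 on 5d) and for Echs1, whereas those of Etfa did not overlap on either day. For Slc25a20 the PPARγ/+ libraries lay wholly above on 0d (log2 0.3, adjusted p = 0.312 by limma). They overlapped with WT on 5d (log2 −0.01).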

How the data were processed

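RNA of 12 C2C12 libraries was sequenced as read pairs from a TruSeq kit. The authors calculated the deposited FPKM from HTSeq counts of known genes, after adapter removal by Trim Galore and STAR alignment on GRCm38 (the submitters' processing notes name mm9). Whether counting used strand is not given in the sources used here. A deposited log2 copy of these values was not used. Fragments were recovered as FPKM times exonic length (GRCm38 annotation) times the mapped fragments the authors list, and came out whole (within 0.01) for 21224 of 27138 expressed genes (78.2%); lengths of 10 members were inferred from the steps between values. They gave the depths, 10836628 to 15133171 per library.

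limma 3.58.1 (empirical Bayes with a trend, R 4.3.3) was run on log2(FPKM + 0.1), which understates changes of low genes, for the 18023 genes with at least 0.1 FPKM in at least 3 libraries. Each comparison of 2 groups used its own 6 libraries and the interaction all 12. Calls needed a Benjamini-Hochberg adjusted p of at most 0.05 over all genes tested. The script was tested on simulated data. Members, lists and tests were chosen with earlier results of these data known. Any member could be named, with full values for those called and those that did not overlap with a 2-fold change. Outside the members, Pparg and at most 3 called genes per list and direction were named, beside examples of markers and the kinases and phosphatases of pyruvate dehydrogenase. Alternatives were other values added, filters, scaling and call rules, 1 fit of all libraries, the replicate block and leaving out each library. Python 3.11.15, numpy 2.4.6, pandas 2.3.3 and matplotlib 3.10.9 handled tables and plots.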

Additional observations from a re-analysis of the deposited data

How the results depend on the processing

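No member changed its sign where it was called in the main or the alternative setting. Of 2775 values compared, 2652 kept their side of the threshold, 100 lost the call and 23 gained it. Most of these values were not called in the main fit and so had no call to lose, so this share does not measure how stable the calls were. The losses were 31 in WT and 59 in PPARγ/+ cells from 0d to 5d, and 10 between the cell types on 0d. The 2-fold rules among these settings apply another threshold to the main fit. Values called in neither setting could change sign and count as kept. For example, the WT change of Pdk4 was 0.02 with all libraries and −0.35 without WT_5d replicate 3. From 0d to 5d in WT cells, the 4 members called lower became 2 with no filter or with median-ratio scaling, 0 with either 2-fold rule, 7 with all 12 libraries in one fit, 1 with the replicate block and 1 to 5 when a library was left out, and the 3 called higher became 5 with median-ratio scaling and 3 to 4 without a library. In PPARγ/+ cells the 11 called lower became 7 with no filter, median-ratio scaling or all 12 libraries, 2 with either 2-fold rule and 7 to 9 without a library, and the 4 called higher became 2 with either 2-fold rule and 4 to 5 without a library. On 0d the member called higher became 0 with no filter, either 2-fold rule or the replicate block, 4 with all 12 libraries and 0 to 1 without a library. On 5d the 0 called higher became 1 with all 12 libraries (Etfa) and 0 to 4 without a library, the 0 called lower 0 to 1, and the 0 members with a lower interaction 0 to 1, all from WT_5d replicate 3. The cause was not tested. Acat1, Pdk2, Ucp2 and Acox3 in both cell types and Acadl, Hadh, Cpt1c, Bdh1 and Ucp3 in PPARγ/+ cells stayed called from 0d to 5d in each alternative in which they were tested, other than the 2-fold rules.

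The replicate numbers are not stated to pair libraries, and deviations of libraries with the same number correlated by −0.0678 to 0.0834, so the replicate block was only an alternative. With it, limma called 0 of all genes between the cell types on 0d (675 without it; 2755 at an unadjusted p of at most 0.05) and 0 on 5d (34 without it; 2001 unadjusted), 61 for the interaction in place of 137, and 8 members lower from 0d to 5d in PPARγ/+ cells. Depth limits Cpt1b, Bdh1, Ehhadh and Ucp3, which had 3 fragments or fewer in at least 1 library.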
